A study of Canis lupus familiaris with 20 samples.

Results

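The genes described are 9 that build the photoreceptor outer segment or the matrix around it: EYS, IMPG1, IMPG2, PRPH2, ROM1, PRCD, PROM1, CDHR1 and RP1. A probe counted as a member where the array's own gene name or description gave one of these genes, and 12 of 43603 distinct probes did. They covered 7 of the 9 genes, since no probe carried the name of IMPG1 or ROM1, which were not analysed here. Where a gene had several probes, the one with the highest mean signal over the 20 arrays is called its main probe or probe 1, and the others are numbered by falling signal.

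The arrays measured retinal RNA from 10 dogs of a research colony, 1 single-colour array per eye, in 4 groups of 5: CNTF eyes of CNGB3-mutant dogs, PBS eyes of CNGB3-mutant dogs, CNTF eyes of normal dogs and PBS eyes of normal dogs. Every dog had 12 µg of ciliary neurotrophic factor (CNTF), a cytokine, injected into the vitreous of the right eye and PBS into that of the left, and retinas were taken 1 week later, so both eyes of a dog form a pair and no eye was left uninjected. The mutants (CNGB3m/m) carry the missense change D262N in CNGB3, a subunit of the cone channel. Among the normal dogs 4 were carriers (CNGB3+/m) and 1, dog 3, was CNGB3+/+. All normal dogs were male and 3 of the mutants female, and sample labels give 8.9 weeks of age for normal dogs and 10.7 to 11.5 weeks for mutants, against about 11 months for both in the study's description. Genotype and labelled age therefore cannot be told apart.

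Rods and cones carry their light-catching proteins in an outer segment, a stack of membrane discs that is built at its base on a modified cilium, shed at its tip and taken up by the retinal pigment epithelium. PRPH2 (peripherin 2) is the tetraspanin that shapes disc rims, and PRCD is a small disc membrane protein whose mutation causes progressive rod-cone degeneration in dogs. PROM1 (prominin 1) and CDHR1 (a photoreceptor cadherin) lie where new discs form, and RP1 binds the microtubules of the outer segment's axoneme. IMPG2 is a proteoglycan of the matrix between photoreceptors and pigment epithelium, and EYS is a secreted protein needed to keep photoreceptors intact.

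The probes are 60 bases long, and their sequences are shown because separate probes of the same gene gave different answers. Positions are those of the array files (build canFam2), and the exon or untranslated part under each probe was not assigned here. PRCD has 4 probes on chromosome 9, minus strand: probe 1 at chr9:7183728-7183787, probe 2 at chr9:7180293-7180352, probe 3 at chr9:7182847-7182906 and probe 4 at chr9:7182891-7183786. Probes 1 and 4 share 31 bases and then part. Probe 1 runs on without a break in the genome, whereas probe 4 skips 836 bases. The lines below give 30 bases of each around that point, read 5′ to 3′, with the last 15 shared bases in lower case and the bases after the parting in capitals.
PRCD probe 1: gcagtcatcaagaagGTAGACTCCTCCCTT
PRCD probe 4: gcagtcatcaagaagTCCTGCTCGACCCAG

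PRCD probe 3 shares its first 16 bases, in capitals, with the end of probe 4. PRCD probe 2 lies 3435 bases from probe 1 and does not overlap it, although 1 of its 2 listed transcript records is also listed for probe 1. The first 30 bases of each are given.
PRCD probe 3: AGAGCAGAGATCAAAGcagatttccgcttc
PRCD probe 2: tgtgtctcaaacgcttcttacgtgctaggc

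PRPH2 has probe 1 at chr12:14303148-14303207 and probe 2 at chr12:14319144-14319203, both on the minus strand and 15996 bases apart. The main probe of EYS lies at chr12:31705195-31705254 and its probe 2 at chr12:30215446-30215852, also on the minus strand, and probe 2 skips 347 genomic bases. The whole sequences of PRPH2 probe 2 and of both EYS probes follow. PRPH2 probe 2 and EYS probe 1 carry the results for these genes, since EYS probe 2 was dim.
PRPH2 probe 2: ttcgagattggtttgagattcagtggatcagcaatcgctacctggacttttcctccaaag
EYS probe 1: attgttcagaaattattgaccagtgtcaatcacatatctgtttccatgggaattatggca
EYS probe 2: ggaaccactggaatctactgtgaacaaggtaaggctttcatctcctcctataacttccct

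IMPG2, CDHR1, RP1 and PROM1 have 1 probe each. The probe of IMPG2 (chr33:10725641-10725688, minus strand, 48 bases placed) and that of CDHR1 (chr4:35666163-35666222, plus strand) both end in the letters of a stop codon, in capitals. The probe of RP1 lies at chr29:9141466-9141525 and that of PROM1 at chr3:67182331-67186924, both on the plus strand, and the PROM1 probe skips 4534 genomic bases.
IMPG2 probe 1: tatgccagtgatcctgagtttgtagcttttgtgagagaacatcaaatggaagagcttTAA
CDHR1 probe 1: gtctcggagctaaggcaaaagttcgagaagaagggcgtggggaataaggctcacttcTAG
RP1 probe 1: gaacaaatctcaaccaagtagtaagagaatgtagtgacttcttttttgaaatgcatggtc
PROM1 probe 1: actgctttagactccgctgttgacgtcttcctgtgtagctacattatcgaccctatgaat

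Levels below are log2 of the processed signal minus the array's 75th percentile, so a level of 0 is the brightness that 75% of probes do not reach. Levels of different probes are not set against each other, and the number of arrays limits the precision of each value. Treatment followed the slides closely: of the 5 slides, with 4 arrays each, only slide 3 held both treatments, with CNTF eyes of normal dogs 1 and 2 beside PBS eyes of mutant dogs 4 and 5. The percentage of probes well above background ranged from 51.7 to 71.6 over the arrays. A probe was tested if its signal stood well above background on 4 or more of a group's 5 arrays, which 11 of the 12 member probes met. PRCD probe 4 did not, being above background on 1 of the 20 arrays, that of the PBS eye of mutant dog 4.

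The members differed between CNTF and PBS eyes in both directions. Treatment followed the slides closely, so these differences cannot be fully told apart from slide. In mutant dogs IMPG2 and PROM1 were higher and EYS and PRPH2, whose main probe was saturated in PBS eyes, lower at the main probe in CNTF eyes than in PBS eyes, and in normal dogs IMPG2 and PROM1 were higher and EYS and RP1 lower. The calls come from a limma fit with the dog as a block and Benjamini-Hochberg adjustment over all probes, at an adjusted p under 0.05. In mutants 4 of 7 main probes passed (2 rose, 2 fell), where 28.9% of all 29302 probes tested did, and in normal dogs 4 of 7 (2 rose, 2 fell), where 51.2% did. By direction, 11.6% of all probes rose and 17.3% fell in mutants, and 23.6% rose and 27.7% fell in normal dogs. The median change of the 7 was -0.41 in mutants and -0.05 in normal dogs, beside -0.09 in each over all probes. The median in mutants is the value of the saturated PRPH2 probe, so it is not a measured typical change. In normal dogs the share of main probes called is thus near that of any probe on the array. Of all 11 tested member probes 8 passed in each genotype (2 rose, 6 fell), where 28.9% and 51.2% of all probes did. That count includes EYS probe 2 and PRCD probe 3, both dim, in mutants the saturated PRPH2 probe 1, and several probes of the same gene.

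**Figure D1:**
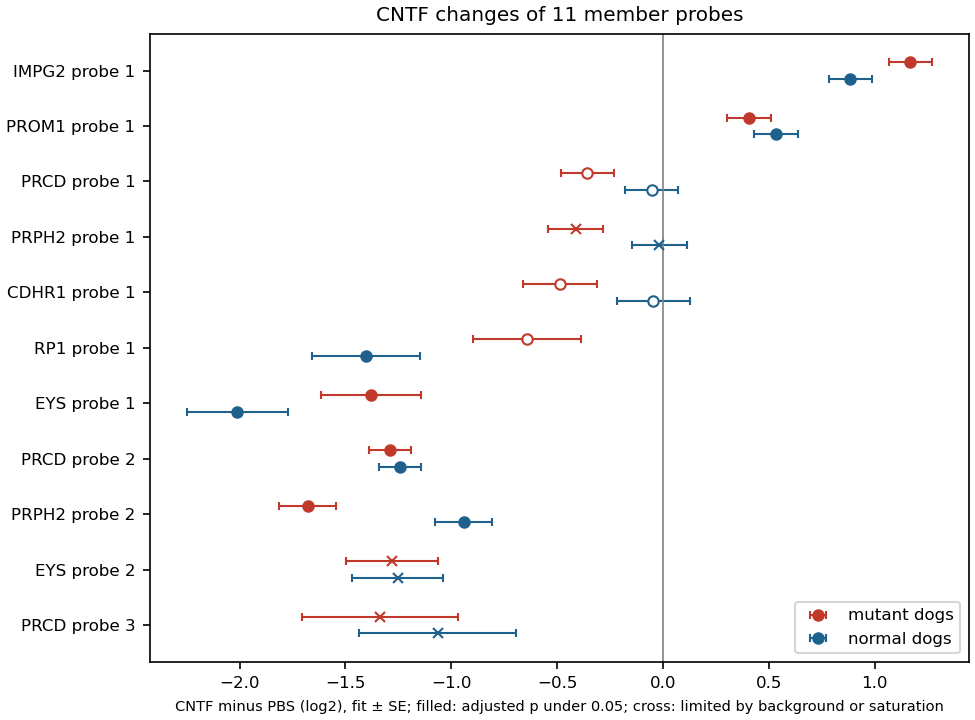
CNTF minus PBS (log2) at the 11 tested member probes, as the fitted change ± SE, mutant dogs in red and normal dogs in blue; filled points passed an adjusted p of 0.05, and crosses mark probes limited by background or saturation. IMPG2 and PROM1 lie right of 0 in both genotypes, the first EYS probe and the second probes of PRCD and PRPH2 left of 0, and the first probe of PRCD close to 0 in normal dogs.

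IMPG2 rose most among the 7 measured members. Its levels in mutant dogs 1 to 5 were 3.88, 4.03, 3.87, 3.89 and 4.12 in CNTF eyes, against 2.92, 2.63, 2.72, 2.80 and 2.88 in PBS eyes. In normal dogs 1 to 5 they were 3.74, 3.89, 3.70, 3.83 and 3.61 in CNTF eyes, against 2.56, 2.90, 3.01, 3.04 and 2.84 in PBS eyes. In both genotypes every CNTF eye was above every PBS eye, as was so, in either direction, for 14.7% of probes in mutants and 30.0% in normal dogs. The change was 1.17 ± 0.10 (log2 ± SE, adjusted p from limma 9.81e-06) in mutants, a 2.25-fold rise, and 0.88 ± 0.10 (adjusted p 6.42e-05) in normal dogs, a 1.85-fold rise. Within slide 3 the CNTF eyes of normal dogs lay 0.97 above the PBS eyes of mutants. With slide as a block and no replicate block, the change was 1.14 ± 0.28 (adjusted p 0.0394) in mutants and 0.89 ± 0.28 (adjusted p 0.0947) in normal dogs, so that the call in normal dogs was lost while the size hardly moved. With dog and slide both as blocks neither passed, at 1.19 ± 0.33 in mutants and 1.00 ± 0.33 in normal dogs (limma, adjusted p 0.199 and 0.226).

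PROM1, the other member that rose, changed by less. In mutants its levels were 4.31, 4.29, 3.92, 4.30 and 4.31 in CNTF eyes of dogs 1 to 5, against 3.80, 3.68, 3.53, 4.02 and 4.06 in PBS eyes. In normal dogs they were 4.33, 4.51, 4.32, 4.47 and 4.25 in CNTF eyes, against 3.44, 4.07, 4.05, 3.86 and 3.79 in PBS eyes. The CNTF eye was the higher of the pair in all 10 dogs, the groups were apart in normal dogs, and in mutants only the CNTF eye of dog 3 fell within the PBS range. The change was 0.41 ± 0.10 (limma, adjusted p 0.0135) in mutants and 0.53 ± 0.10 (adjusted p 0.00199) in normal dogs. The PROM1 call depended on the processing: adjusted p was 0.104 after quantile normalization and 0.123 in the deposited values for normal dogs, 0.0603 in the deposited values for mutants, and 0.0533 for mutants without mutant dog 2. After normexp background correction it was 0.537 in mutants and 0.0782 in normal dogs.

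EYS fell. Its main probe read -1.71, -2.35, -1.29, -2.33 and -1.76 in CNTF eyes of mutant dogs 1 to 5, against 0.043, -1.40, -0.42, -0.77 and -0.0037 in their PBS eyes. In normal dogs 1 to 5 it read -2.09, -1.25, -2.04, -1.38 and -2.28 in CNTF eyes, against -0.60, -0.038, 0.66, 0.47 and 0.52 in PBS eyes. All 10 dogs had the lower level in the CNTF eye, and the groups were apart in normal dogs, while in mutants the PBS eye of dog 2 fell within the CNTF range. The change was -1.38 ± 0.24 (limma, adjusted p 0.00132) in mutants and -2.01 ± 0.24 (adjusted p 8.1e-05) in normal dogs. EYS was thus 2.60-fold lower in CNTF eyes of mutants and 4.03-fold lower in those of normal dogs.

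The second EYS probe was dim. It was well above background in 1 of 5 CNTF eyes in each genotype and in all PBS eyes, and averaged -4.79 ± 0.72 in CNTF eyes and -3.51 ± 0.37 in PBS eyes of mutants (SD, n = 5 each). In normal dogs the averages were -4.52 ± 0.47 in CNTF eyes and -3.26 ± 0.38 in PBS eyes (SD, n = 5 each). It entered the fit only through the PBS eyes, so no change, test or fold is read from it. Its fitted value was -1.28 in mutants and -1.25 in normal dogs, and 0.32 and -0.11 after normexp background correction. At the main EYS probe that correction gave -0.68 in mutants (limma, adjusted p 0.0571).

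RP1, the axoneme protein, had levels of 1.38, 1.91, 1.80, 2.52 and 2.61 in CNTF eyes of mutant dogs 1 to 5, against 2.56, 2.69, 1.71, 3.20 and 3.28 in PBS eyes. In normal dogs they were 1.84, 2.11, 1.69, 1.85 and 1.37 in CNTF eyes, against 2.14, 3.11, 3.86, 3.30 and 3.48 in PBS eyes. The groups did not overlap in normal dogs, whereas in mutants they overlapped and dog 3 had the higher level in its CNTF eye. RP1 fell by 1.40 ± 0.26 in normal dogs (limma, adjusted p 0.00135), and the change in mutants, -0.64 ± 0.26, did not pass (adjusted p 0.0839; 0.0379 without normal dog 1).

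**Figure D2:**
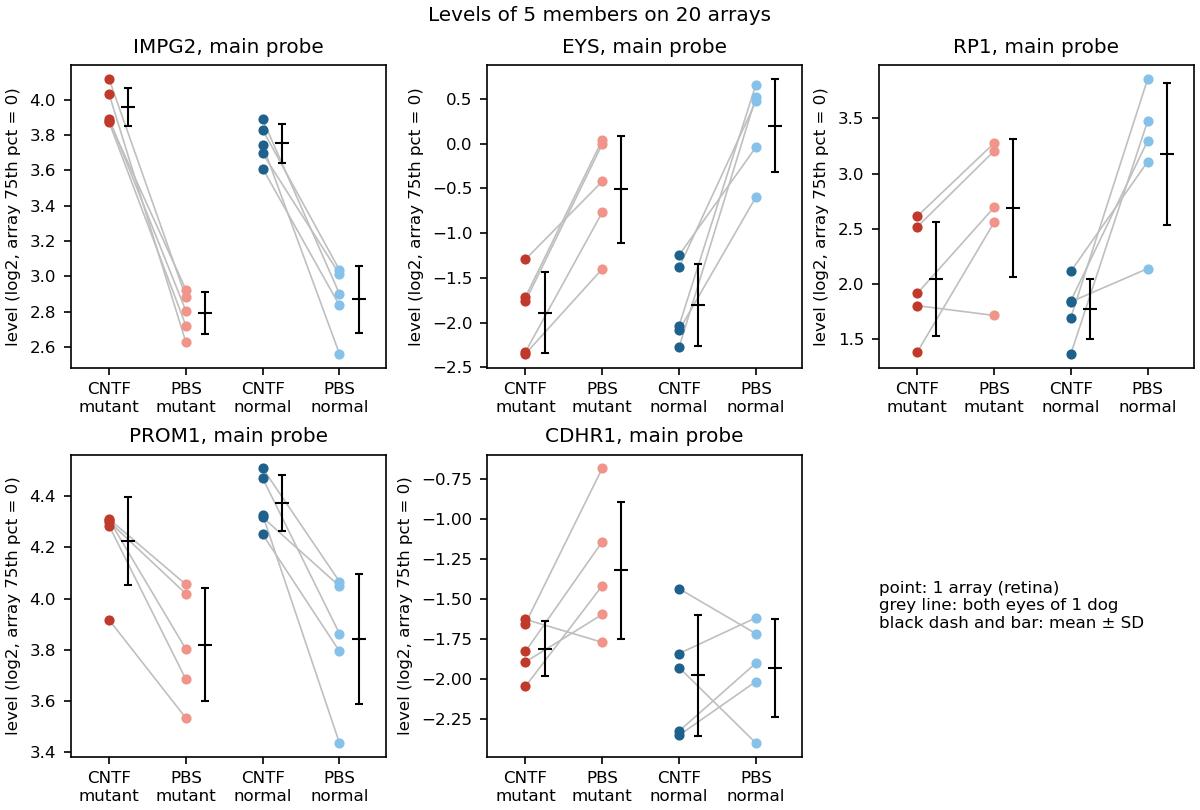
Levels (log2, array 75th percentile set to 0) of IMPG2, EYS, RP1, PROM1 and CDHR1 at the main probe in the 4 groups, 1 point per array, grey lines joining both eyes of a dog, black bars the mean ± SD. For IMPG2 the CNTF eyes sit between 3.61 and 4.12, all above the PBS eyes, and for CDHR1 the groups overlap.

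CDHR1, the cadherin at the base of new discs, did not pass in either genotype. In mutants its level ranged from -2.04 to -1.63 with a median of -1.83 in CNTF eyes, and from -1.77 to -0.68 with a median of -1.42 in PBS eyes. In normal dogs it ranged from -2.35 to -1.44 with a median of -1.93 in CNTF eyes, and from -2.40 to -1.62 with a median of -1.90 in PBS eyes. The fitted change was -0.49 ± 0.17 in mutants (limma, adjusted p 0.0563), lower in 4 of 5 CNTF eyes, and -0.05 ± 0.17 in normal dogs (adjusted p 0.837). Without mutant dog 1, whose PBS eye was the lowest, the change in mutants was -0.65 (adjusted p 0.0198), and without normal dog 3 the adjusted p was 0.046.

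The main probe of PRPH2 was too bright to measure the change. All 25 spots of this probe were saturated on the 5 PBS arrays of mutants, against 3 of 25 on the CNTF arrays, and in normal dogs 25 of 25 were saturated on PBS arrays, against 4 of 25 on CNTF arrays. All spots were also marked as outliers on the PBS arrays of mutant dog 5 and normal dog 3, so the fit dropped those values and 4 dogs of each genotype remained. In mutants PRPH2 probe 1 averaged 7.02 ± 0.21 in CNTF eyes (SD, n = 5) and 7.50 ± 0.26 in PBS eyes (SD, n = 4). The fit over the 4 paired mutant dogs gave -0.41 ± 0.13 (limma, adjusted p 0.0408), and since spots were saturated in both treatments no fold is given. In normal dogs it averaged 7.06 ± 0.22 in CNTF eyes (SD, n = 5) and 7.03 ± 0.15 in PBS eyes (SD, n = 4). The call in mutants was lost in all 5 fits without a mutant dog, with adjusted p between 0.0519 and 0.161, and without normal dog 2 (0.0518) or normal dog 4 (0.0626). It was also lost after quantile normalization (0.0693), after normexp correction (0.149), with no filter on dim probes (0.0898), for the mean over both PRPH2 probes (0.106), with slide as a block (0.864) and with dog and slide (0.983).

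PRPH2 probe 2, which was not saturated on any array, fell in both genotypes. It read 2.93, 3.17, 2.93, 2.85 and 2.44 in CNTF eyes of mutant dogs 1 to 5, against 4.45, 4.86, 4.72, 4.47 and 4.21 in PBS eyes. In normal dogs it read 2.79, 2.58, 3.23, 2.84 and 3.37 in CNTF eyes, against 4.22, 3.85, 3.72, 3.77 and 3.97 in PBS eyes. Every CNTF eye was below every PBS eye in each genotype. The change was -1.68 ± 0.13 in mutants (limma, adjusted p 5.71e-06), a 3.20-fold fall, and -0.94 ± 0.13 in normal dogs (adjusted p 0.000302), a 1.92-fold fall. Within slide 3 the CNTF eyes of normal dogs lay 1.65 below the PBS eyes of mutants (-1.65 log2). With slide as a block and no replicate block, the change was -1.87 ± 0.38 in mutants (adjusted p 0.0145) and -0.95 ± 0.38 in normal dogs (adjusted p 0.194). With dog and slide both as blocks neither passed, at -2.12 ± 0.37 in mutants and -1.2 ± 0.37 in normal dogs (limma, adjusted p 0.0957 and 0.203).

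**Figure D3:**
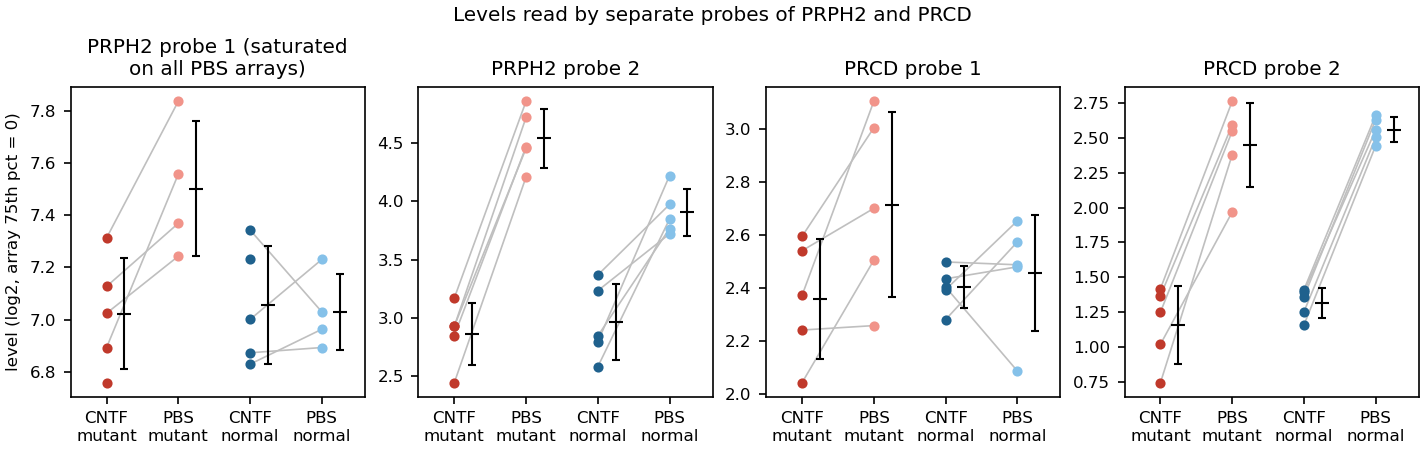
Levels (log2, array 75th percentile set to 0) at probes 1 and 2 of PRPH2 and of PRCD in the 4 groups, drawn as points per array with lines joining both eyes of a dog and bars for the mean ± SD. At PRPH2 probe 2 the CNTF eyes of mutants sit between 2.44 and 3.17, below their PBS eyes, while probe 1 is saturated on all PBS arrays, and PRCD separates the treatments at probe 2 but not at probe 1.

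PRCD gave different answers at its probes. Probe 1 read 2.24, 2.54, 2.04, 2.37 and 2.60 in CNTF eyes of mutant dogs 1 to 5, against 2.26, 2.70, 2.51, 3.11 and 3.01 in PBS eyes, and 2.39, 2.28, 2.40, 2.43 and 2.50 in CNTF eyes of normal dogs, against 2.65, 2.57, 2.09, 2.48 and 2.49 in PBS eyes. The groups overlapped in both genotypes, and the change was -0.36 ± 0.12 in mutants (limma, adjusted p 0.0513) and -0.05 ± 0.12 in normal dogs (adjusted p 0.731). In mutants the adjusted p was 0.0429 after quantile normalization, 0.0275 in the deposited values, 0.0405 without normal dog 3 and 0.0348 without mutant dog 1.

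PRCD probe 2 read 1.37, 1.02, 1.25, 0.75 and 1.42 in CNTF eyes of mutant dogs 1 to 5, against 2.59, 1.97, 2.55, 2.38 and 2.76 in PBS eyes. In normal dogs it read 1.25, 1.40, 1.16, 1.36 and 1.41 in CNTF eyes, against 2.50, 2.56, 2.44, 2.63 and 2.66 in PBS eyes. Every CNTF eye was below every PBS eye. PRCD probe 2 fell by 1.29 ± 0.10 in mutants (limma, adjusted p 4.42e-06), 2.44-fold, and by 1.24 ± 0.10 in normal dogs (adjusted p 4.49e-06), 2.37-fold.

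The difference between these PRCD probes, probe 2 minus probe 1 on the same array, is free of the scaling between arrays. It changed with CNTF by -0.93 ± 0.16 in mutants and -1.19 ± 0.28 in normal dogs (SD, n = 5 each), below 0 in 10 of 10 dogs, with -1.60 in normal dog 3 farthest from 0 and -0.79 in mutant dog 2 nearest. Over all 10 dogs it was -1.06 ± 0.26 (SD, n = 10). The contrast was chosen after its values were seen, so it is a description and was not tested. With slide as a block it was -0.26 ± 0.51 in mutants and -0.82 ± 0.51 in normal dogs, so it was smaller and its error larger.

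**Figure D4:**
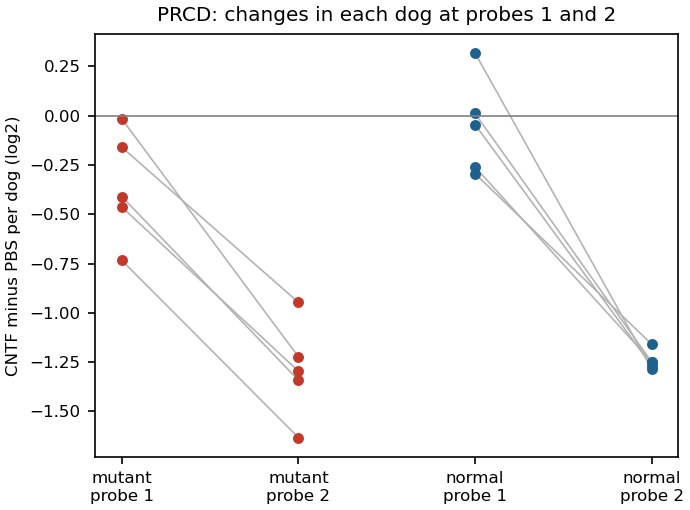
CNTF minus PBS (log2) in each dog at PRCD probes 1 and 2, 1 point per dog and probe, lines joining the probes of the same dog. In all 10 dogs the change at probe 2 lies below that at probe 1.

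The slides leave little room to part treatment from slide for the members just described. With slide as a block and no replicate block, 1 of 7 main probes passed in mutants (IMPG2) and 0 of 7 in normal dogs (limma), where 798 and 1148 of 29334 probes passed. The main probe of EYS then changed by -1.10 ± 0.80 in mutants (adjusted p 0.684) and by -2.40 ± 0.80 in normal dogs (adjusted p 0.118), and RP1 by -1.52 ± 0.68 in mutants (adjusted p 0.355) and by -2.42 ± 0.68 in normal dogs (adjusted p 0.0626). PROM1 changed by 0.34 ± 0.32 in mutants and by 0.26 ± 0.32 in normal dogs (adjusted p 0.809 and 0.669). PRCD probe 2 kept its call in normal dogs, at -1.54 ± 0.37 (adjusted p 0.0276), and lost it in mutants, at -1.19 ± 0.37 (adjusted p 0.116). With dog and slide both as blocks RP1 changed by -0.34 in mutants and by -1.28 in normal dogs (adjusted p 0.849 and 0.399). PRCD probe 2 then passed in neither, at -1.52 in mutants (adjusted p 0.158) and -1.54 in normal dogs (adjusted p 0.142). With slide as a block PRCD probe 1 changed by -0.92 ± 0.34 in mutants (adjusted p 0.202) and by -0.72 ± 0.34 in normal dogs (adjusted p 0.256), and with dog and slide by -0.69 and -0.66.

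Within slide 3, where CNTF eyes came from normal dogs and PBS eyes from mutants, the CNTF arrays differed by -1.28 at EYS probe 1, -1.26 at RP1, -1.24 at PRCD probe 2, -0.72 at PRCD probe 1, -0.71 at CDHR1 and 0.38 at PROM1. These are values of 2 arrays against 2, have no test, and hold treatment and genotype together.

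PRCD probe 3 was well above background on no CNTF array, and on 3 of 5 PBS arrays in mutants and 4 of 5 in normal dogs. It averaged -5.27 ± 0.91 in CNTF eyes and -3.93 ± 0.85 in PBS eyes of mutants, and -4.93 ± 0.46 in CNTF eyes and -3.87 ± 0.40 in PBS eyes of normal dogs (SD, n = 5 each). It entered the fit only through the PBS eyes of normal dogs, so no change or fold is read from it. The limma p-values (adjusted 0.0193 in mutants and 0.0328 in normal dogs) belong to fitted changes of -1.34 and -1.06 that use the below-background values. After normexp correction the fitted changes were 0.41 and 0.03, the opposite direction. PRCD probe 4, above background on a single array, is given no fold.

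The changes with CNTF were also compared between genotypes in the same fit, as the change in mutants minus that in normal dogs. None of the 7 main probes passed, and 0% of the 29302 probes did (limma, adjusted p under 0.05), although 10157 had an unadjusted p under 0.05. Among members, PRPH2 probe 2 had the smallest p: its fall was larger in mutants by 0.74 on the log2 scale (-0.74 ± 0.19, unadjusted p 0.00265, adjusted p 0.103). For the main probes the differences were 0.76 ± 0.36 for RP1, 0.63 ± 0.34 for EYS, 0.28 ± 0.14 for IMPG2, -0.13 ± 0.15 for PROM1, -0.30 ± 0.18 for PRCD and -0.44 ± 0.25 for CDHR1, with adjusted p between 0.157 and 0.537. RP1 and the first probe of PRPH2 each passed in 1 genotype only, which does not show a difference between genotypes.

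Mutant and normal dogs were compared in eyes of the same treatment. In PBS eyes 0 of 7 main probes passed, where 0.0272% of 29422 probes did (limma). An unadjusted p under 0.05 was found at 3 of the 7, and at 10183 of all 29422 probes tested. PRPH2 probe 2 averaged 4.54 ± 0.25 in mutants and 3.91 ± 0.20 in normal dogs (SD, n = 5 each), a difference of 0.64 ± 0.15 (adjusted p 0.0953), and within slide 2 the difference was 0.70. Without normal dog 1 it was 0.71 (adjusted p 0.0359), in a fit that called 6292 of all probes between the genotypes, against 8 with that dog. EYS probe 1 averaged -0.51 ± 0.60 in mutants and 0.20 ± 0.52 in normal dogs (SD, n = 5 each), a difference of -0.71 ± 0.31 (adjusted p 0.134), or -0.91 without normal dog 1 (adjusted p 0.0498). CDHR1 differed by 0.61 ± 0.22 (adjusted p 0.102). IMPG2, PROM1, RP1 and PRCD probe 1 differed by -0.08, -0.02, -0.49 and 0.26, with adjusted p of 0.301 or more. PRPH2 probe 1, which with CDHR1 and EYS made up the 3 at an unadjusted p under 0.05, was saturated in both groups. Its difference is therefore not read.

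In CNTF eyes 0 of 7 main probes passed between mutant and normal dogs, where 0.00681% of 29355 probes did. None of the 7 had an unadjusted p under 0.05 (limma), against 1643 of all 29355 probes. RP1 averaged 2.05 ± 0.52 in mutants and 1.77 ± 0.27 in normal dogs, and IMPG2 3.96 ± 0.11 in mutants and 3.75 ± 0.11 in normal dogs (SD, n = 5 each). The differences at the main probes lay between -0.15 for PROM1 and 0.27 for RP1, and the groups overlapped at every main probe, as at all but 1.09% of probes.

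Genes that work beside the members were taken from lists for the outer segment and its axoneme and for the matrix and disc uptake, at the brightest probe of each gene. Of 16 outer segment and axoneme genes 10 were measured. In mutants 5 fell and 1 rose, with a median change of -0.52, and in normal dogs 4 fell and 1 rose, with a median of -0.49, beside -0.09 over all probes in each. ABCA4, the disc transporter that clears retinoids, fell by 1.08 ± 0.10 in mutants and by 1.03 ± 0.10 in normal dogs. CRB1, a polarity protein of photoreceptors and glia, fell by 1.09 ± 0.10 in mutants and by 0.69 ± 0.10 in normal dogs, and ARL3, a small GTPase that unloads lipidated proteins from their carriers, fell by 0.97 ± 0.10 in mutants and by 1.00 ± 0.10 in normal dogs. The largest adjusted p among these values was 0.000425 (limma).

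Of 16 matrix and uptake genes 11 were measured. In mutants 2 rose and 3 fell with a median change of -0.08, and in normal dogs 5 rose and 1 fell with a median of 0.35. EFEMP1, an extracellular matrix protein, rose by 1.38 ± 0.16 in mutants and by 1.27 ± 0.16 in normal dogs. MFGE8, a ligand for the uptake of shed discs in mice, fell by 1.13 ± 0.18 in mutants. ITGB5, a subunit of its integrin receptor, fell by 0.56 ± 0.17 in mutants. In normal dogs neither passed, at -0.36 ± 0.18 for MFGE8 and 0.27 ± 0.17 for ITGB5 (limma, adjusted p 0.104 and 0.195). PROS1, a ligand of the uptake receptor MERTK, rose by 0.45 ± 0.13 in mutants and by 0.72 ± 0.13 in normal dogs. CD44, a hyaluronan receptor, rose by 0.93 ± 0.15 in normal dogs and did not pass in mutants, at 0.20 ± 0.15 (limma, adjusted p 0.347). Adjusted p was at most 0.0286 for the values said to rise or fall (limma).

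Markers of retinal cells moved with CNTF beside the members. In mutants 6 of 7 measured rod markers fell, and their summed level, in multiples of the 75th percentile, was 218 to 355 in CNTF eyes against 427 to 739 in PBS eyes. In normal dogs 3 of 7 fell and 1 rose, and the sum was 185 to 369 in CNTF eyes against 360 to 487 in PBS eyes. Cone markers fell in 4 of 5 cases in mutants and 5 of 5 in normal dogs, with sums of 20.7 to 34.9 in CNTF eyes against 68.9 to 97.4 in PBS eyes of mutants, and of 20.9 to 30.0 in CNTF eyes against 78.8 to 99.7 in PBS eyes of normal dogs. CNGA3, a sixth cone marker, was well above background on no array.

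Microglial markers moved the other way, with 5 of 6 called higher in mutants and 6 of 6 in normal dogs. These counts include CX3CR1, which was well above background on no PBS array. It entered the fit only through CNTF eyes, so no rise is read from it. The summed level of the microglial markers was 16.0 to 24.7 in CNTF eyes against 5.83 to 8.25 in PBS eyes of mutants. In normal dogs it was 15.4 to 23.5 in CNTF eyes against 4.24 to 5.51 in PBS eyes. Of the pigment epithelium markers 3 of 6 fell in mutants and 2 of 6 in normal dogs. In these whole retinas fewer cells of a type and less RNA per cell cannot be told apart, and the part of such shifts in the members' changes was not tested.

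The genes whose levels followed each member most closely over the 20 arrays were found among 7599 genes above background on every array. They were TRIM36 and IL18BP for IMPG2 (Pearson r 0.98 and 0.97), C31H21orf91 and MCF2L2 for EYS (0.97 and 0.97), and USP1 and ARFGEF1 for RP1 (0.97 and 0.96). For CDHR1 they were CDK16 and FLAD1 (0.91 and 0.91), for PROM1 TMEM50A and LPCAT2 (0.88 and 0.87), and for PRCD probe 1 ESPL1 and PPP2R2D (0.77 and 0.76). The arrays share slides and 4 groups, so these are descriptions of shared group patterns. PRPH2 was left out because its main probe was saturated.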

How the data were processed

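Per the labels' protocols, 100 ng of retinal RNA was labelled with Cy3. Intensity per spot was taken from the deposited array files, which per the file headers came from Agilent Feature Extraction 9.5.3.1. The deposited log2 matrix (Partek 6.4 in the submitters' processing notes) has the same distribution in every column, median 6.18, with its exact normalization not given in the sources used here, and served as an alternative only. Control and outlier-marked spots were left out, spots of a probe averaged, and log2 taken minus each array's 75th percentile. The filter on background, 4 or more arrays of any group, kept 29466 of 43603 probes. Symbols came from the array files and a RefSeq table of assembly UU_Cfam_GSD_1.0.

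CNTF was tested with limma 3.58.1 (R 4.3.3) with dog as a block, and genotype within each treatment without covariates, two-sided, with Benjamini-Hochberg adjustment over all probes tested. Eyes were paired by dog: number, sex, age and alleles match in the labels. Sex, age and alleles are alike for all normal dogs but dog 3, and for mutant dogs 2 and 3, so there only the number tells the pairs. Deviations of paired arrays correlated at -0.15 to 0.69 over all probes, and at 0.173 to 0.734 over the 500 most variable. Among PBS arrays of its genotype, the CNTF array matched that of its own dog best in 4 of 10 dogs over all probes. Over the 500 most variable it did so in 9 of 10. All members, every probe, are named. The 3 genes of each neighbour list with the smallest adjusted p in each direction, per genotype, are named, as are the 2 most alike genes per member, except that 2 of these list genes are not reported here. Markers of endothelium, lens, Müller glia and red cells were counted too: 0 of 2, 1 of 3, 3 of 5 and none measured were called in mutants, and 1 of 2, 0 of 3, 4 of 5 and none measured in normal dogs. The lens marker called in mutants, MIP, was well above background on no CNTF array of mutants, so no change is read from it. Members and lists were chosen with earlier results of these data known. Slides were read from the array barcodes.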

Additional observations from a re-analysis of the deposited data

Results flagged for a closer look

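Of 44 groups of arrays examined over the 11 tested member probes, 1 held an array far from the others, and chance alone gives about 1 in 20 such groups. PROM1 in the CNTF eye of mutant dog 3 read 3.92, below the other 4 CNTF eyes of mutants, which lay between 4.29 and 4.31. The PBS eye of the same dog, at 3.53, was also the lowest of its group. No change with CNTF differed between the genotypes at an adjusted p under 0.05 (limma), and no member had all dogs of a genotype moving against all dogs of the other.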

How the results depend on the processing

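With slide as a block, 1 main probe was called in mutants and 0 in normal dogs, with dog and slide both as blocks 0 in each, and after normexp correction 1 in mutants (limma, adjusted p under 0.05). Without the replicate block (the dog), 4 were called in each genotype, as with it, and no call was changed. Leaving out a dog gave 2 to 6 called in mutants, the 2 without mutant dog 2 and the 6 without normal dog 3, and 4 in normal dogs throughout. It gave 0 to 1 called between genotypes in PBS eyes, the 1 being EYS without normal dog 1. Other changes of direction were at uncalled or near-background values. CDHR1 in normal dogs gave 0.030 after quantile normalization, 0.089 after normexp, 0.016 in the deposited values and 0.20 with dog and slide, and in mutants 0.060 with dog and slide. For the CNTF effect in mutants minus that in normal dogs, PROM1 gave 0.13 after quantile normalization, 0.10 in the deposited values, 0.082 with slide and 0.048 with dog and slide. PRCD probe 3 gave, in mutants and normal dogs, 0.41 and 0.031 after normexp, 0.81 and 0.75 with slide, and 2.25 and 2.08 with dog and slide. EYS probe 2 gave 0.32 in mutants after normexp. PRPH2 probe 1 in normal dogs gave 0.23 with slide, 0.53 with dog and slide and 0.027 without the replicate block. Between genotypes in CNTF eyes, normexp gave -0.039 for IMPG2 and 0.25 for EYS, slide as a block gave -0.25 for RP1 and 0.18 for EYS, and males only gave 0.020 for PRPH2 probe 1. In PBS eyes of males PROM1 differed by 0.069. Over all probes, 8467 were called in mutants and 15007 in normal dogs, against 3293 and 5755 after normexp, 798 and 1148 with slide as a block and 47 and 0 with dog and slide. Of the calls, 40.3% and 46.0% were higher, against 56.1% and 61.1% after normexp, which moved the median of all probes to 0.17 and 0.09. The difference of the CNTF effects gave 0 calls, against 69 with slide and 44 with dog and slide. Genotype in PBS eyes gave 8 calls, against 1 to 6292 over the alternatives, the 6292 without normal dog 1, and in CNTF eyes 2, against 0 to 190. The cause of these changes was not tested. With a dog left out, called values kept their sign, and the ranges that crossed 0 were, for CNTF in normal dogs, -0.15 to 0.0057 (PRCD probe 1), -0.13 to 0.053 (PRPH2 probe 1) and -0.18 to 0.048 (CDHR1), between genotypes in PBS eyes -0.12 to 0.049 (PROM1), and in CNTF eyes -0.20 to 0.0048 (PRPH2 probe 2), -0.10 to 0.035 (PRCD probe 1), -0.11 to 0.039 (PRPH2 probe 1) and -0.23 to 0.057 (EYS).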
